A study of Mastomys natalensis with 4 samples.

Results

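The epidermal growth factor (EGF) family and its ERBB receptors were followed in the stomach of an African rodent, Mastomys natalensis, whose enterochromaffin-like (ECL) cells, the histamine-making endocrine cells of the acid-secreting mucosa, readily form tumours. A list of 9 genes was examined, the 6 ligand genes Tgfa, Egf, Areg, Hbegf, Ereg and Btc and the 3 receptor genes Egfr, Erbb2 and Erbb3. Members were the probe sets to which the platform's annotation gives a single mouse gene symbol from this list. They numbered 12 of the 12488 probe sets on the array, 7 for ligands and 5 for receptors. They covered 7 of the 9 genes, 5 ligands and 2 receptors, out of 8251 genes with such a probe set. Areg and Erbb2 had no entry in that annotation and were not analysed here.

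Total RNA was measured on Affymetrix mouse U74 arrays in 2 samples taken after 16 weeks of loxtidine (spelled loxitidine in the labels), at a stage labelled neoplasia of ECL cells, and in 2 samples taken after 8 weeks, at a stage labelled hyperplasia of ECL cells. Loxtidine blocks the histamine H2 receptor and so suppresses acid secretion, and all 4 samples had received it. Untreated mucosa was not analysed here, treatment time and lesion stage cannot be told apart, and the labels used here give neither age nor whether RNA of several animals was pooled. The labels leave unsaid whether each sample is a different animal, and p-values then cover the spread among these 4 samples alone, technical spread included.

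The ligands of this family are made as membrane-bound precursors and are released by metalloproteinases. They bind receptor tyrosine kinases that work in pairs, and the paired receptors recruit adaptor proteins that switch on the Ras and MAP kinase cascade and phosphoinositide 3-kinase. In the stomach the family is known for driving renewal and repair of the surface epithelium and for restraining acid secretion, and transforming growth factor alpha has been studied as a growth factor of ECL cells in this animal.

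Probes designed on mouse sequence were hybridised with RNA of another rodent genus, and a mismatched probe gives a weak signal, so a transcript behind a dim probe set may still have been present. Levels were therefore compared between samples only, for the same probe set or for a sum over the same probe sets. Such a sum leans on its brightest probe sets and can include genes that were not tested. An intensity of 12.15, the median over the arrays of each array's 40th percentile, served as the floor, and values below it were set to it before log2 was taken. At 16 weeks 62.4% and 62.3% of probe sets lay above it, against 55.3% and 57.9% at 8 weeks. The number of arrays limits the precision. The labelled tissue carried a signal of acid-secreting parietal cells in all 4 samples. Their proton pump gene Atp4a read 4850 and 4034 in the 16-week samples and 4442 and 5304 in the 8-week samples. A second proton pump gene, Atp4b, read 915 and 634 in the 16-week samples, against 1091 and 1701 in the 8-week samples. Of 6 tested parietal cell genes 4 were lower and 2 higher at 16 weeks, with 0 called by limma. The summed intensity of 8 smooth muscle genes was 1752 and 1688 in the 16-week samples against 3349 and 2873 in the 8-week samples, and that of 5 pancreatic acinar genes 2082 and 6552 in the 16-week samples, against 3498 and 779 in the 8-week samples. For 8 ECL and neuroendocrine cell genes the sum was 644 and 611 in the 16-week samples, against 490 and 548 in the 8-week samples. Of these genes 7 were tested, 5 higher and 2 lower at 16 weeks, with 0 called by limma. In bulk tissue a change in the cells of a type and a change in RNA per cell cannot be told apart.

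No member passed the test between 16 and 8 weeks. Of the 12 probe sets, 5 exceeded the floor in 2 or more samples and were tested, those of Tgfa, Hbegf and Erbb3 and 2 of the 3 for Egfr. By limma, with p-values adjusted (Benjamini-Hochberg) over the 7883 probe sets tested, 0 of the 5 were called at 0.05, and 0 had an unadjusted p under 0.05. Over the whole table limma called 0% of the probe sets as well, and 14% had an unadjusted p under 0.05. Groups did not overlap for 1 of the 5, the brightest probe set of Egfr, which was higher at 16 weeks. Among all tested probe sets 49.3% had groups that did not overlap, 28.7% higher and 20.6% lower at 16 weeks, so the members' share was not above that background. The 5 differences had a median of 0.28 on the log2 scale, beside 0.09 for all tested probe sets. That median is the value of Tgfa, for which 1 sample of each group was set to the floor. Of the 5 probe sets 2 are of the same gene, Egfr.

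Among the ligands, only Hbegf was above the floor in all 4 samples. It encodes heparin-binding EGF-like growth factor, which binds both the EGF receptor and ERBB4 and is also held near cells by heparan sulfate. Its probe set 92730_at read 42.1 and 48.1 in the 16-week samples, against 45.5 and 48.2 in the 8-week samples. The ranges of the groups overlapped, with 16-week sample 1 the lowest of the 4. The log2 difference, 16 minus 8 weeks, was -0.06 ± 0.24 (SE, n = 2 each; limma adjusted p = 0.915), with a 95% interval from -0.67 to 0.55. Changes of either sign up to those bounds are thus compatible with the 4 values, and the difference was 0.04 without 16-week sample 1.

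Transforming growth factor alpha (Tgfa), a ligand of the EGF receptor that gastric epithelium makes, gave a signal close to the floor. Probe set 92369_at read 11.6 and 18.7 in the 16-week samples and 3.2 and 12.6 in the 8-week samples. The groups overlapped, with 16-week sample 2 the highest and 8-week sample 1 the lowest of the 4. In each group 1 of the 2 samples lay above the floor and the other was set to it, which gave a log2 difference of 0.28 ± 0.30 (SE, n = 2 each; limma adjusted p = 0.668) and a 95% interval from -0.49 to 1.06. The size depended on the floor, since the difference was 0.71 with a floor at the 25th percentile, and on 1 sample, since it was -0.03 without 16-week sample 2.

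The other ligands gave little or no signal above the floor, and no change is given for them. EGF itself, the founding ligand, is made in large amounts by salivary glands in rodents. Its probe set 102774_at read 6.4 and 6.7 in the 16-week samples against 5.1 and 4.1 in the 8-week samples, and the second, 161460_r_at, read 8.7 and 12.8 in the 16-week samples, against 8.9 and 9.8 in the 8-week samples. The floor was exceeded in 16-week sample 2 alone, on the second probe set. The 12.8 read there lay at percentile 39.1 of that sample's values, under the sample's own 40th percentile. Such a value cannot tell Egf transcript from background. That sample also had the highest summed intensity of 5 salivary gland genes, 40.6 and 218 in the 16-week samples against 120 and 49.4 in the 8-week samples. All 3 tested genes of that list, the kallikreins Klk1 and Klk1b22 and the amylase gene Amy1, were highest there, at 50.9, 114 and 41.2. The summed intensities of the acinar genes and of 9 squamous forestomach genes were highest in that sample too, and the squamous sum was 318 and 1056 in the 16-week samples, against 484.5 and 453 in the 8-week samples. Of those 9 genes 6 were tested, 5 higher and 1 lower at 16 weeks with 0 called by limma, and the squamous keratin gene Krt4 read 518 in that sample and 103.5 to 189.5 in the others. Of the tested members, Tgfa and the brightest Egfr probe set were also highest there. The others were not: Erbb3 96771_at was highest in 16-week sample 1 and Hbegf in 8-week sample 2. Egfr 101841_at had its lowest value in 16-week sample 2. Whether salivary, acinar or squamous tissue was present, and its part in the values of Egf, Tgfa and Egfr, was not tested.

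Epiregulin (Ereg), which activates the EGF receptor and ERBB4, read 5.2 and 2.6 in the 16-week samples against 1.5 and 0.7 in the 8-week samples on probe set 98802_at. Its second probe set, 161158_f_at, read 1.2 and 1 in the 16-week samples, against 0.6 and 0.5 in the 8-week samples. Betacellulin (Btc), a ligand of the same 2 receptors, read 2.3 and 1.3 in the 16-week samples, against 1.1 and 1.7 in the 8-week samples. All of these values lie far under the floor, where the order of values is no measurement of the transcript.

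Of the 5 member probe sets below the floor on all 4 arrays, 4 nevertheless had deposited values higher in both 16-week samples: 1 of Egf, both of Ereg and 1 of Erbb3. Of all 3323 probe sets below the floor throughout, 40.5% were higher in both 16-week samples and 5.96% lower in both. The 25th percentile of the arrays was likewise 7.2 and 7.3 in the 16-week samples, against 4.8 and 5.7 in the 8-week samples. The part of this in the dim members was not tested.

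The EGF receptor itself (Egfr), which binds most ligands of the family, had 3 probe sets that did not run alike. On the brightest, 101842_g_at, the values were 48.3 and 59 in the 16-week samples and 41.1 and 29.9 in the 8-week samples. Both samples at 16 weeks lay above both at 8 weeks, though the gap between the groups, 48.3 over 41.1, was smaller than the distance between the samples of either group. The log2 difference was 0.61 ± 0.29 (SE, n = 2 each), which is 1.52-fold, with a 95% interval from -0.12 to 1.34, an unadjusted p of 0.0861 and a limma adjusted p of 0.398. It was the smallest p among the members, and 1703 of the 7883 tested probe sets had a smaller one. The difference lay between 0.38 and 0.84 with each sample left out in turn and did not pass in any of these fits.

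The second Egfr probe set, 101841_at, carries the same source accession as the first. It read 22.6 and 4.2 in the 16-week samples against 13.6 and 21.9 in the 8-week samples. The 16-week samples were the highest and the lowest of the 4, so the groups overlapped fully. Its difference was -0.06 ± 0.42 (SE, n = 2 each; limma adjusted p = 0.957), with a 95% interval from -1.14 to 1.02. Without 16-week sample 2 it was 0.39, and without 8-week sample 2 it was 0.29. With a floor at the 25th percentile it was -0.52, since 16-week sample 2 lay under the floor.

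The third, 101840_at, from another source sequence, read 10.4 and 4.1 in the 16-week samples against 3.6 and 20.5 in the 8-week samples. Only 8-week sample 2 exceeded the floor, and the probe set was not tested. In 16-week sample 2 the brightest probe set was at its maximum while 101841_at was at its minimum, and in 8-week sample 2 the brightest was at its minimum while 101840_at was at its maximum. The Egfr probe sets therefore gave no common direction between 16 and 8 weeks. The suffix of 101842_g_at marks probes that a group of related sequences can share.

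Erbb3 encodes a receptor with little kinase activity of its own, which binds neuregulins and signals through its partner. Probe set 96771_at read 40.1 and 30.1 in the 16-week samples and 32.8 and 20.5 in the 8-week samples. The groups overlapped, since 8-week sample 1 lay above 16-week sample 2. The log2 difference was 0.42 ± 0.34 (SE, n = 2 each; limma adjusted p = 0.577), with a 95% interval from -0.45 to 1.29. Without 8-week sample 1 the difference was 0.76, and without 8-week sample 2 it was 0.08. The spread within groups was as large as the difference, 0.41 between the samples at 16 weeks and 0.68 between those at 8 weeks on the log2 scale. The second Erbb3 probe set, 101776_at, read 3.1 and 3.2 in the 16-week samples against 2.2 and 3 in the 8-week samples, under the floor on all 4 arrays. Thus 8-week sample 2 had the lowest value of both brighter receptor probe sets, 29.9 for Egfr and 20.5 for Erbb3. It was also the sample with the lowest summed intensity of the acinar genes, 779. The highest sum, 6552, was in 16-week sample 2, which had the highest value of the brightest Egfr probe set, 59. The highest Erbb3 value, 40.1, was in 16-week sample 1, where the sum was 2082. What part acinar cells had in these values was not tested.

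**Figure D1:**
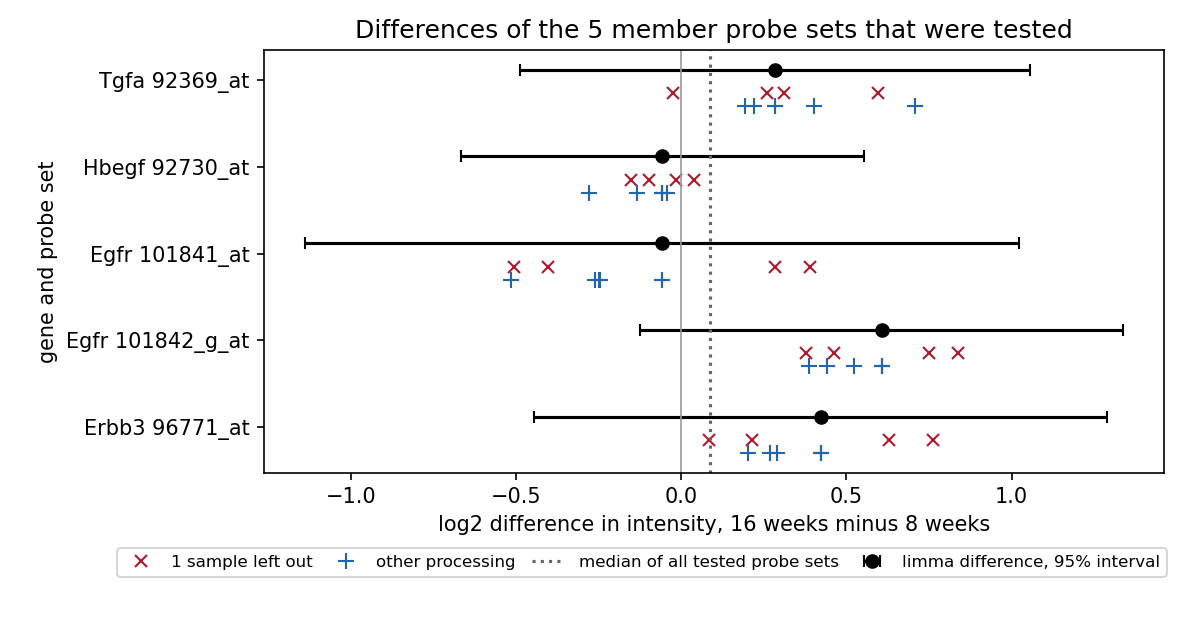
Log2 difference in intensity, 16 minus 8 weeks, of the 5 member probe sets that were tested, with limma's 95% interval (black), the value with 1 sample left out (red crosses) and the value under other processing (blue plus signs). The intervals of all 5 include 0. The Egfr probe set 101842_g_at and the Erbb3 probe set stay above 0 throughout, and the other 3 change sign with a sample left out.

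Scaling of the arrays moved the sizes but no sign among the 5 tested member probe sets. Placing the arrays on a common median shifted the median difference of all tested probe sets to -0.11, a shift of -0.19 from the deposited scale. Relative to the median of all tested probe sets, Egfr 101842_g_at was at 0.52 on the deposited scale, 0.50 after quantile normalization and 0.49 on a common median. Erbb3 96771_at was at 0.34, 0.27 and 0.31 in the same order, and Hbegf at -0.14, -0.16 and -0.17. The 2 probe sets with values at the floor moved more, Tgfa at 0.20, 0.17 and 0.33 and Egfr 101841_at at -0.15, -0.27 and -0.14.

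For each tested gene of the family, the probe set with the most similar course over the 4 samples was identified among 6991 others with 1 gene symbol. Likeness was the Euclidean distance between log2 values centred on their mean. For Egfr 101842_g_at it was Yif1a, a membrane protein of transport between endoplasmic reticulum and Golgi, at a distance of 0.063. It read 124 and 153 in the 16-week samples against 108 and 74.2 in the 8-week samples. For Erbb3 it was Dvl2, a transducer of Wnt signals, at 0.064, with 100.3 and 77.8 in the 16-week samples, against 84.9 and 54.6 in the 8-week samples. For Hbegf it was the stress kinase gene Mapk9, at 0.042, and for Tgfa the transcription factor gene Klf12, at 0.050. Klf12 read 11.1 and 18.8 in the 16-week samples, against 12.2 and 4.3 in the 8-week samples, so its small distance from Tgfa comes from values set to the floor or next to it, and the deposited values ran opposite ways between the 8-week samples. With 4 samples such likeness is common: 109 probe sets lay within a distance of 0.3 of Egfr, 58 of Erbb3, 712 of Hbegf and 301 of Tgfa.

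Genes that act around the receptors were described from 6 lists with 82 genes in all, of which 65 were named by the annotation and 44 reached the test. The brightest tested probe set stood for a gene. With limma 0 of the 44 were called after adjustment, as were 0% of all 5864 tested genes. An unadjusted p under 0.05 was found for 2 of the 44, Shc1 and Ier2, both higher at 16 weeks. Of all tested genes 13.4% had one, and 7.54% had one and were higher. Groups did not overlap for 16 of the 44, which is 36.4%, 12 higher and 4 lower at 16 weeks. The same held for 48.7% of all tested genes, 27.6% higher and 21.1% lower. Higher values at 16 weeks were found for 25 and lower for 19, with a median log2 difference of 0.04, beside 0.07 for all tested genes. The shares of pathway genes past either criterion were thus below those of the whole table.

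The remaining family receptor, Erbb4, which binds neuregulins as well as some EGF-type ligands, was dim and read 15.7 and 16.4 in the 16-week samples against 9.5 and 15.2 in the 8-week samples. Its log2 difference was 0.24 ± 0.25 (SE, n = 2 each; limma adjusted p = 0.664), with 8-week sample 1 set to the floor. Leaving out that sample gave 0.08, and 0.40 was found without 8-week sample 2. The groups did not overlap, by a margin of 15.7 against 15.2. Of the 6 genes in its list, with the neuregulins and epigen, it was the only one tested.

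Among the genes that release or assist the ligands, 5 of 6 were lower at 16 weeks and 1 was higher, with a median of -0.14 (-0.36 on a common median, -0.10 after quantile normalization, where 3 of the 6 were higher, and -0.04 without 16-week sample 2). Adam10, a metalloproteinase that releases EGF and betacellulin, read 119 and 71.1 in the 16-week samples against 129 and 121 in the 8-week samples. Its second probe set read 21.4 and 24.9 in the 16-week samples, against 34.2 and 43.9 in the 8-week samples, so both probe sets had lower values in both samples at 16 weeks. The log2 difference of the brighter was -0.44 (limma adjusted p = 0.550), -0.07 without 16-week sample 2 and -0.81 without 16-week sample 1. That of the second was -0.75, with an unadjusted p of 0.0363, smaller than those of Shc1 and Ier2, and it was not called either (limma adjusted p = 0.347). The related metalloproteinase gene Adam15 read 31.4 and 10.3 in the 16-week samples, against 39.6 and 27.7 in the 8-week samples, with overlapping groups. Its difference of -0.76 was -0.08 without 16-week sample 2.

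The adaptors and proximal effectors had 9 of 13 genes higher at 16 weeks and a median of 0.32 (0.24 after quantile normalization, 0.10 on a common median, 0.17 without 16-week sample 2). Shc1, the adaptor that docks on phosphorylated receptors, read 52.6 and 36.5 in the 16-week samples against 27.5 and 5.9 in the 8-week samples. The groups did not overlap, but 8-week sample 2 lay under the floor, and the log2 difference was 1.26 ± 0.47 (SE, n = 2 each; unadjusted p = 0.0418, limma adjusted p = 0.349). Leaving out 8-week sample 2 gave 0.67, and 1.85 was found without 8-week sample 1. A second Shc1 probe set read 11.5 and 10.8 in the 16-week samples, against 6.3 and 6.7 in the 8-week samples, under the floor throughout. Sos1, the exchange factor that loads Ras with GTP, read 47.1 and 35.7 in the 16-week samples, against 28.2 and 27.9 in the 8-week samples, a difference of 0.55 ± 0.26 (SE, n = 2 each; limma adjusted p = 0.402) that was 0.35 without 16-week sample 1.

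In the Ras and MAP kinase cascade 3 of 5 genes were higher, with a median of 0.05 that was -0.05 after quantile normalization and -0.06 on a common median. Leaving out 8-week sample 1 gave -0.07, and 0.43 was found without 8-week sample 2. The kinase gene Map2k2, which activates the ERK kinases, read 77.6 and 103 in the 16-week samples against 59.4 and 57.2 in the 8-week samples, with groups that did not overlap (0.62 ± 0.26 SE, n = 2 each; limma adjusted p = 0.375). The difference was 0.41 without 16-week sample 2. Nras, which encodes a Ras protein, was near or under the floor, at 16.4 and 16.3 in the 16-week samples, against 3.9 and 16.6 in the 8-week samples.

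The attenuators of the pathway were split, with 6 of 10 higher and a median of 0.05 that was -0.17 on a common median. Leaving out 8-week sample 2 gave -0.21, and -0.18 was found without 16-week sample 1, with 4 of 10 higher in both, and 0.18 without 8-week sample 1. Spry4, an inhibitor of receptor signalling that the MAP kinase pathway induces, read 147 and 134 in the 16-week samples against 84.8 and 117 in the 8-week samples (0.49 ± 0.28 SE, n = 2 each; limma adjusted p = 0.456), and the difference was 0.26 without 8-week sample 1. Rasa1, which switches Ras off, read 52.9 and 41.3 in the 16-week samples, against 65.7 and 51.7 in the 8-week samples, with overlapping groups.

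The transcriptional targets were split as well, with 5 of 9 genes higher and a median of 0.26 (0.12 after quantile normalization, 0.04 on a common median). Without 8-week sample 1 the median was -0.01, with 4 of 9 higher, and without 16-week sample 1 it was 0.04. The immediate early gene Ier2 read 30.9 and 18.7 in the 16-week samples against 13.9 and 11.5 in the 8-week samples (0.89 ± 0.33 SE, n = 2 each; unadjusted p = 0.0422, limma adjusted p = 0.349), with 8-week sample 2 under the floor. Its difference was 0.53 without 16-week sample 1. Fos, the AP-1 subunit induced by growth factors, lay the other way on its brighter probe set, at 43.4 and 42.5 in the 16-week samples, against 56.5 and 71.8 in the 8-week samples (limma adjusted p = 0.389). On its second probe set Fos read 16.6 and 25.3 in the 16-week samples, against 15.2 and 18.5 in the 8-week samples, with overlapping groups.

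**Figure D2:**
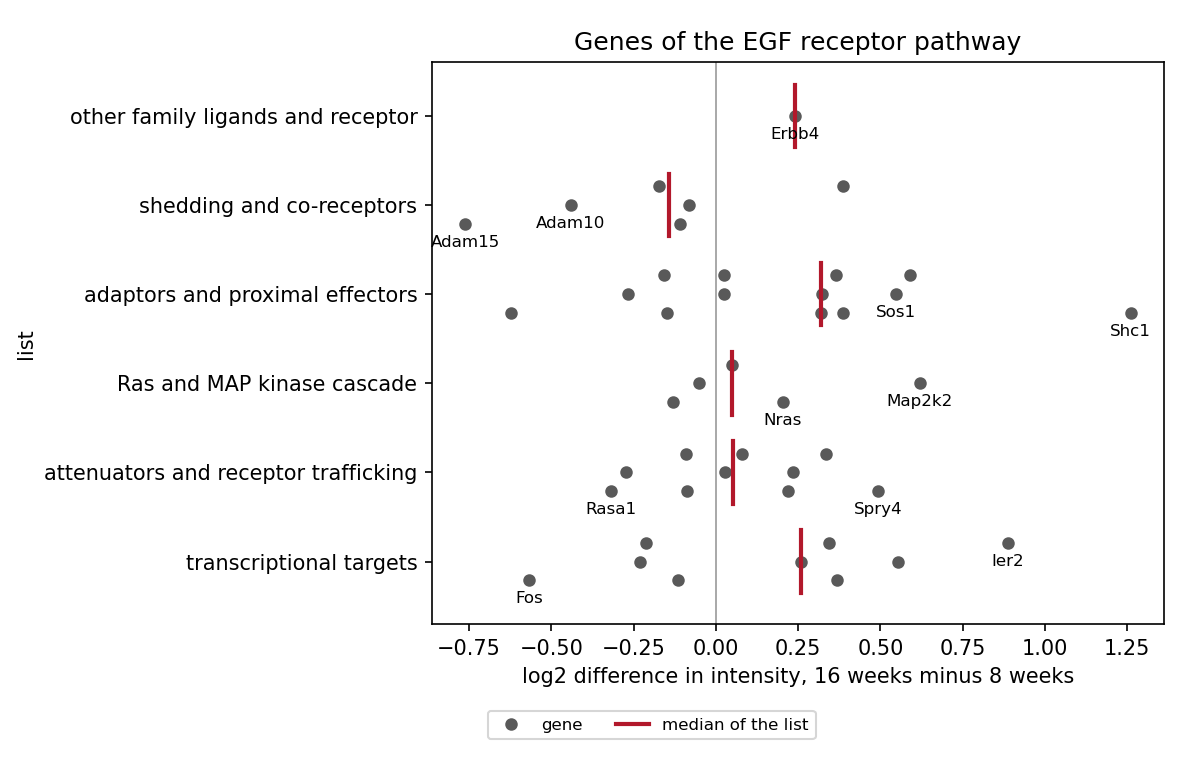
Log2 difference in intensity, 16 minus 8 weeks, of 44 genes around the receptors, grouped by role, with a point per gene (spread vertically for legibility) and a red bar at each list's median. Points lie on both sides of 0 in every list with more than 1 gene, and the genes named in the text are marked.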

How the data were processed

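Expression arrays of 4 samples were analysed. The values are the authors' deposited intensity for each probe set, on a linear scale, and the summary method and any scaling behind them are not stated by the labels. The trimmed means of the 4 arrays lay within 4.76% of their mean, so the deposited scale was kept. The platform annotation gives a single gene symbol to 10833 of the 12422 non-control probe sets, several to 396 (left unnamed) and none to 1193. Values below the floor of 12.15 were set to it, log2 was taken, and the 7883 probe sets above it on at least 2 arrays were tested with limma 3.58.1 in R 4.3.3 (lmFit and eBayes, 2-sided, Benjamini-Hochberg threshold 0.05). The script was tested on simulated data. With 2 samples per group the smallest 2-sided p of an exact permutation test is 0.333, and limma reaches smaller values by sharing variance estimates across the table. Groups came from the labels. Alternatives covered scaling, floor, filter, log scale, the replicate number as a block, the choice of a gene's probe set and each sample left out. Beside all member probe sets, the text names up to 2 genes per pathway list with the smallest p, the most similar probe set of each tested member, and marker genes. Members and lists were chosen with earlier results of these data known. No sequence or coordinates were used.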

Additional observations from a re-analysis of the deposited data

How the results depend on the processing

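The count of called probe sets was 0 under each alternative that kept the filter on dim probe sets, with each sample left out in turn included. It was 22 without the filter, where no member was called. That fit took in the 3323 probe sets below the floor on all 4 arrays, whose values, all set to the floor, had no spread. Their differences were therefore 0, and they cannot themselves be among the 22 calls. Their effect on the variance estimates that limma shares across the table, and through these on the 22 calls, was not tested. With the replicate number as a block 0 probe sets were called, and the median of the 5 member differences was 0.285. The deviations of same-numbered samples from their group means correlated at -0.0504 across probe sets. With 2 samples per group that value cannot settle whether same-numbered samples shared more than a number. The median of the tested members lay between 0.215 and 0.389 with a sample left out. It was 0.353 with 1 probe set per gene and 0 without the filter, where the members at the floor enter. The number of pathway genes higher at 16 weeks lay between 20 and 29 of 44 with a sample left out and was 19 on a common median. With a sample left out the difference of Tgfa lay between -0.0262 (without 16-week sample 2) and 0.596, that of Hbegf between -0.154 and 0.0386 (without 16-week sample 1), and that of Egfr 101841_at between -0.506 and 0.389 (without 16-week sample 2; 0.285 without 8-week sample 2). No other alternative changed the sign of a tested member. Where a single sample of a group was left, it was assumed to vary like the other group. Signal over background is a limit, since 5 of the 12 member probe sets, 4 of ligands and 1 of a receptor, never exceeded the floor.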
